A study of Mus musculus with 6 samples.

Results

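The transcripts described here encode non-collagen proteins of the extracellular matrix and the enzymes and inhibitors that remodel it. The set has 43 genes, picked by symbol and matched to Ensembl identifiers, out of 49315 genes in the count table. All 43 were found and all 43 passed the filter on low counts, among 14508 genes tested. RNA sequencing was done on 6 mouse hearts of the C57BL/6 background, 1 library per heart: 3 wild-type hearts (WT1 to WT3) and 3 hearts with an Arrdc4 knock-out made by CRISPR-Cas9 (KO1 to KO3). The labels state no age, sex, litter, collection time or number of founder lines, and p-values measure the spread between these samples, which may be technical in part. Arrdc4 encodes an alpha-arrestin, an adaptor for ubiquitin ligases, and its reads numbered 281 to 349 in the wild-type libraries and 1 to 5 in the knockout libraries.

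The matrix of the heart is made largely by fibroblasts, with shares from endothelial, smooth muscle, valve and epicardial cells. Collagen fibres carry the load, while proteoglycans space them, elastic fibres recoil, and matricellular proteins such as periostin and tenascin-C carry signals between matrix and cells. Lysyl oxidases crosslink the fibres. Metalloproteinases of the MMP and ADAMTS families cut matrix proteins, and tissue inhibitors of metalloproteinases (TIMPs) hold those enzymes in check. Many of these genes are known to rise in cardiac injury and fibrosis.

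The libraries held 29974501 to 41036626 counts, and mitochondrial genes took 21.8% to 27.7% of them. Levels are given as CPM, counts relative to library sizes scaled by TMM. The 43 genes took between 0.147% (KO2) and 0.319% (KO1) of the counts, or 46480 to 130773 reads. Reads of 4 Y-linked genes summed to 146 to 165 CPM in WT1, WT2 and KO1 and to 1.11 to 2.06 CPM in WT3, KO2 and KO3, so hearts with such reads were 2 of 3 wild-type and 1 of 3 knockout hearts. WT3 and KO2 were the closest pair of libraries over all genes (chi-square of 5.46 per degree of freedom, against 17.8 or more for other pairs) although their genotypes differ. The 10 cardiomyocyte markers were all detected and summed to 72490 to 85110 CPM in wild-type and 70030 to 91860 CPM in knockout hearts.

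Knockout hearts had higher values than wild-type hearts for most of these matrix genes, but no gene of the set passed the test and hearts of 1 genotype differed widely. Of the 43 genes, 37 had higher and 6 lower values in knockout, with a median log2 fold change of 0.41. Over all genes tested, 52.3% were higher and the median was 0.01. The quasi-likelihood test of edgeR called 0 of the 43 genes at an adjusted p under 0.05, where the background was 0.00689% of all genes tested, Arrdc4 alone, and each of the 43 had an adjusted p of 1. DESeq2 and limma-voom also called 0 of them. At an unadjusted p under 0.05 edgeR held 2 of the 43 (4.65%), Lum and Smoc2, against a background of 1.23%, and DESeq2 and limma-voom held the same 2 genes. Neither was below that p in edgeR without WT1 or without KO3, and Smoc2 was above it also without WT3, without KO1 and under a replicate block.

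The groups overlapped for 42 of the 43 genes. Lum alone had all knockout hearts above all wild-type hearts, which is 2.33% of the set against 2.18% of all genes tested. No gene of the set had all knockout hearts below all wild-type hearts, against 1.9% of all genes tested. The interval of the fold change was wide for these genes. Their median standard error was 0.41, against 0.23 over all genes, and the 95% interval lay wholly within 2-fold up or down for 10 of 43 (23.3%) against 76.4% of all genes. A 1.5-fold difference was excluded for 4 of them (9.3%, against 39.7% of all genes), Dcn, Ogn, Serpinh1 and Ctsk.

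KO1 stood apart in these genes. Among the 6 hearts it ranked first for 29 of the 43 genes (67.4%), against 21.6% of all genes tested. KO2 was the lowest for 19 of them (44.2%, against 20.4% of all genes) and WT3 for 12 (27.9%, against 22.3%). In 24 genes KO1 stood at least 2-fold above the median of the other hearts, which held for 3.86% of all genes tested. Without KO1 the median log2 fold change of the set was 0.10 and 27 of 43 genes were higher. Without KO2 it was 0.68 and 40 were higher, and 19 genes then had an unadjusted p under 0.05 (44.2%) against a background of 7.6%, with a smallest adjusted p of 0.613 in edgeR. With any other single library left out that number was between 1 and 4. It was 1 without WT1, KO1 or KO3 (against 0.634%, 0.821% and 0.854% of all genes tested). It was 3 without WT3 (against 1.14%) and 4 without WT2 (against 1.24%). Without WT2 the median was 0.69 and without WT3 it was 0.27.

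**Figure D1:**
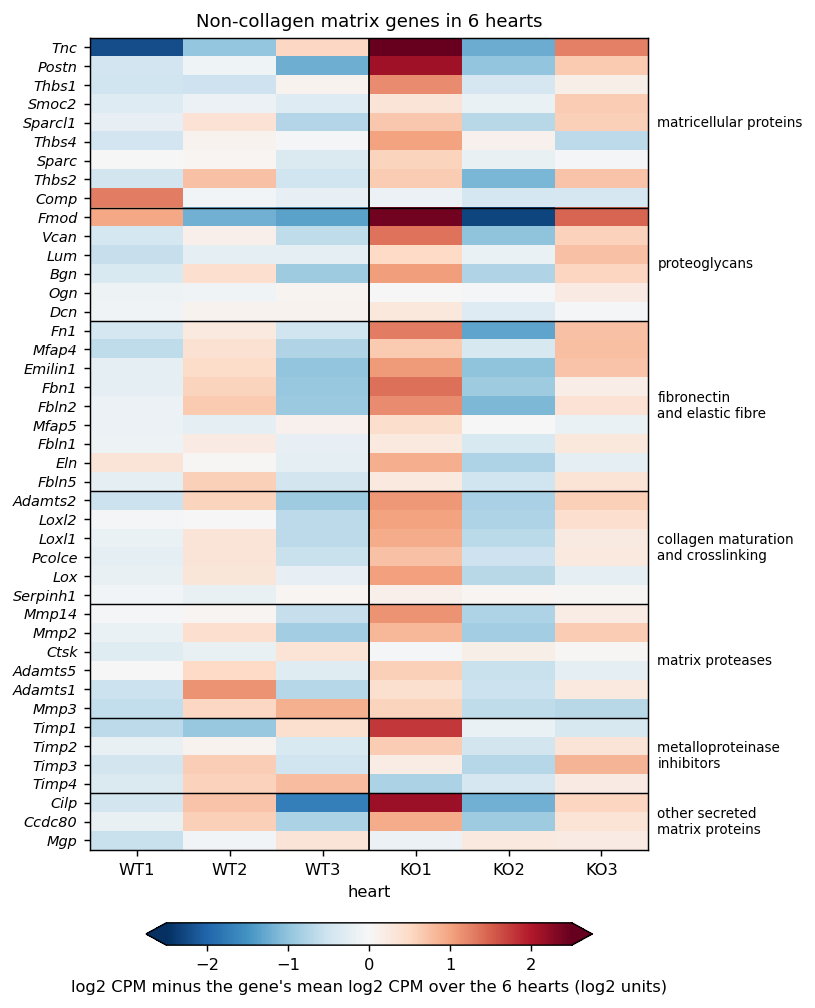
Heat map of the 43 matrix genes (rows, in blocks by role) in the 6 hearts (columns); colour gives log2 CPM minus the mean of that gene over the hearts, in log2 units, and the line separates wild type from knockout. KO1 is the highest heart for 29 genes, KO2 is the lowest for 19 and WT3 for 12.

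The same hearts ranked high and low across genes of quite different roles. In 26 of 43 genes (60.5%) WT3 and KO2 were the 2 lowest hearts, against 29.0% of all genes tested. KO1 and KO3 were the 2 highest hearts for 18 genes (41.9%, against 13.6%), and KO1, KO3 and WT2 were the 3 highest for 24 (55.8%, against 23.5%). Within wild type, WT2 was the highest heart for 29 of the 43 (67.4%, against 39.4% of all genes tested) and WT3 the lowest for 30 (69.8%, against 42%). Between WT3 and KO2 themselves, 15 of the 43 genes were higher in KO2 and 28 lower, with a median log2 ratio of -0.10. Over all genes tested 52.3% were higher in KO2. Among the 4 other hearts, 39 of the 43 were higher and 4 lower in KO1 and KO3 than in WT1 and WT2, with a median log2 ratio of 0.52. For that comparison 51.0% of all genes were higher. These ratios rest on 1 or 2 hearts a side and carry no test.

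Hearts were also compared by their Y-linked reads. Among those with such reads, KO1 exceeded the mean of WT1 and WT2 in 40 of 43 genes (against 49.9% of all genes tested), with a median log2 ratio of 0.68. Among those without, the mean of KO2 and KO3 exceeded WT3 in 28 of 43 (against 51.5%), with a median of 0.48. Each of these comparisons has only 1 heart on 1 side and carries no test. A fit with a term for Y-linked reads gave a median log2 fold change of 0.59, with 39 of 43 genes higher. It called 0 of them (smallest adjusted p of 0.854 in edgeR). In that fit 13 of the 43 had an unadjusted p under 0.05 in edgeR, against 3.72% of all genes tested.

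**Figure D2:**
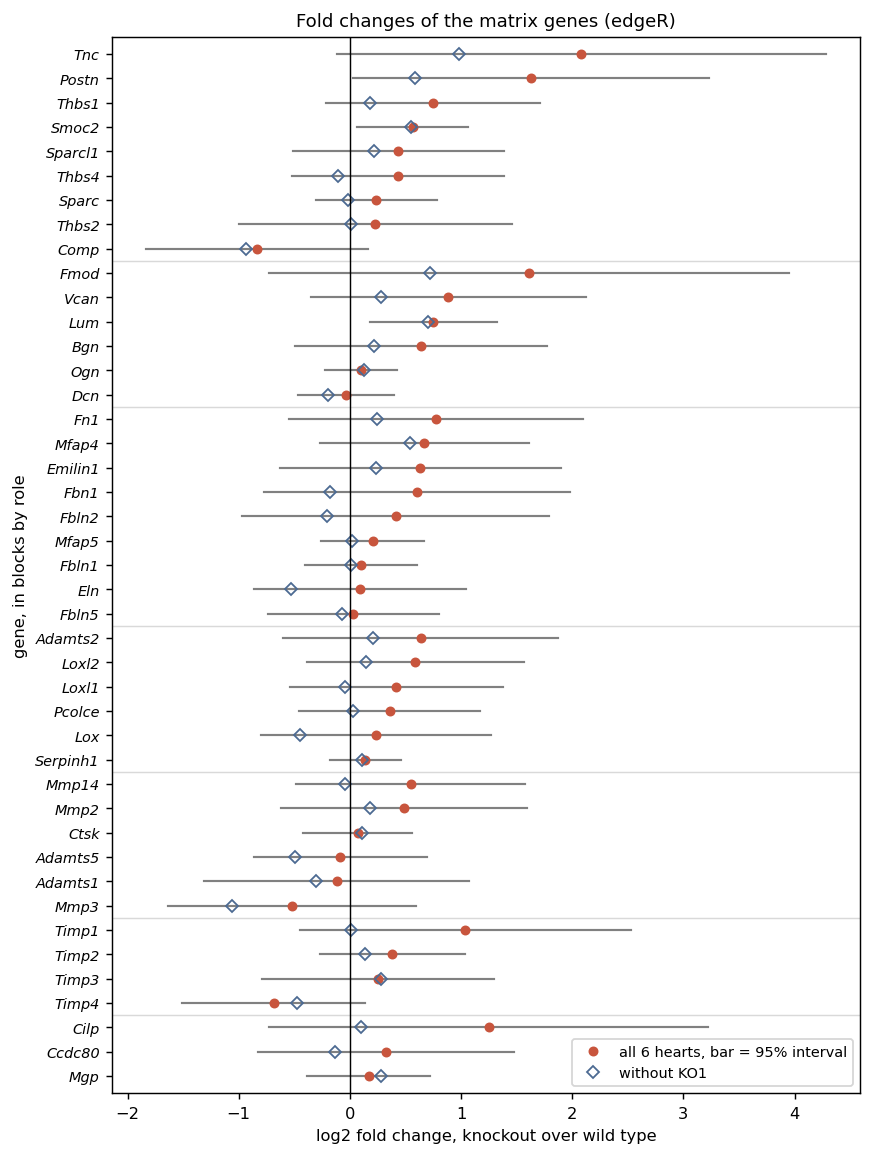
Log2 fold change of each of the 43 genes, knockout over wild type, with its 95% interval from edgeR (circles and bars, 6 hearts), beside the value without KO1 (diamonds). The interval lies above 0 for 3 genes, Lum, Smoc2 and Postn (unadjusted p of 0.051 for Postn in edgeR). The share of all genes with such an interval was not counted. At an unadjusted p under 0.05 in edgeR the set held 2 genes (4.65%), against 1.23% of all genes tested. Without KO1 the median of the set is 0.10 in place of 0.41.

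Matricellular proteins held the 2 largest fold changes of the set, those of Tnc and Postn. Of 9 such genes 8 were higher in knockout and 1 lower, with a median log2 fold change of 0.43. Postn encodes periostin, a secreted protein of activated fibroblasts. It stood at 10.9, 14.2 and 6.57 CPM in WT1 to WT3 and at 66.2, 7.72 and 24.0 CPM in KO1 to KO3. KO1 and KO3 lay above all wild-type hearts and KO2 lay within their range, so that the log2 fold change was 1.63 (SE 0.68, adjusted p of 1 in edgeR), and 0.59 without KO1. Tnc encodes tenascin-C, a large glycoprotein that is scarce in the resting heart. Its levels were 0.316, 0.746 and 2.09 CPM in wild type and 9.17, 0.620 and 3.48 CPM in knockout, a log2 fold change of 2.08 (SE 0.94) that was 0.98 without KO1 and 3.04 without WT3. KO1 exceeded the median of the other hearts 12.3-fold for Tnc and 6.07-fold for Postn. The ratio of the highest to the lowest heart was 29.0 for Tnc and 10.1 for Postn, and within wild type alone it was 6.6 and 2.16.

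Smoc2, a calcium-binding matricellular protein of fibroblasts, varied less. It was measured at 43.8, 49.1 and 43.4 CPM in wild type and 68.2, 48.3 and 85.1 CPM in knockout (log2 fold change 0.56, SE 0.21). KO2 fell just inside the wild-type range. Without KO1 the log2 fold change of Smoc2 was 0.55, close to its value with all hearts. Thbs1, a thrombospondin that can activate latent TGF beta, stood at 3.26, 3.22 and 4.89 CPM in wild type and 10.4, 3.45 and 5.11 CPM in knockout (0.75, SE 0.41). Comp, a thrombospondin of cartilage and tendon, was the one matricellular gene with lower values: 3.67, 1.44 and 1.31 CPM in wild type against 1.35, 1.10 and 1.13 CPM in knockout (-0.83, SE 0.43). The wild-type mean of Comp was raised by WT1 alone, and the other 5 hearts lay between 1.10 and 1.44 CPM, with a log2 fold change of -0.20 without WT1.

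Sparc, a collagen-binding protein, had the highest level of the group per length, 77.2 CPM per kb of exon. Its values were 285, 296 and 225 CPM in wild type and 420, 253 and 278 CPM in knockout (log2 fold change 0.24, SE 0.23, adjusted p of 1 in edgeR). KO1 was the highest heart, and without it the log2 fold change of Sparc was -0.02. Its relative Sparcl1 followed at 66.6 CPM per kb with a log2 fold change of 0.43 (SE 0.40). The thrombospondins Thbs2 and Thbs4 had log2 fold changes of 0.23 (SE 0.52) and 0.43 (SE 0.41), and Thbs4 was lowest in KO3 and highest in KO1.

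**Figure D3:**
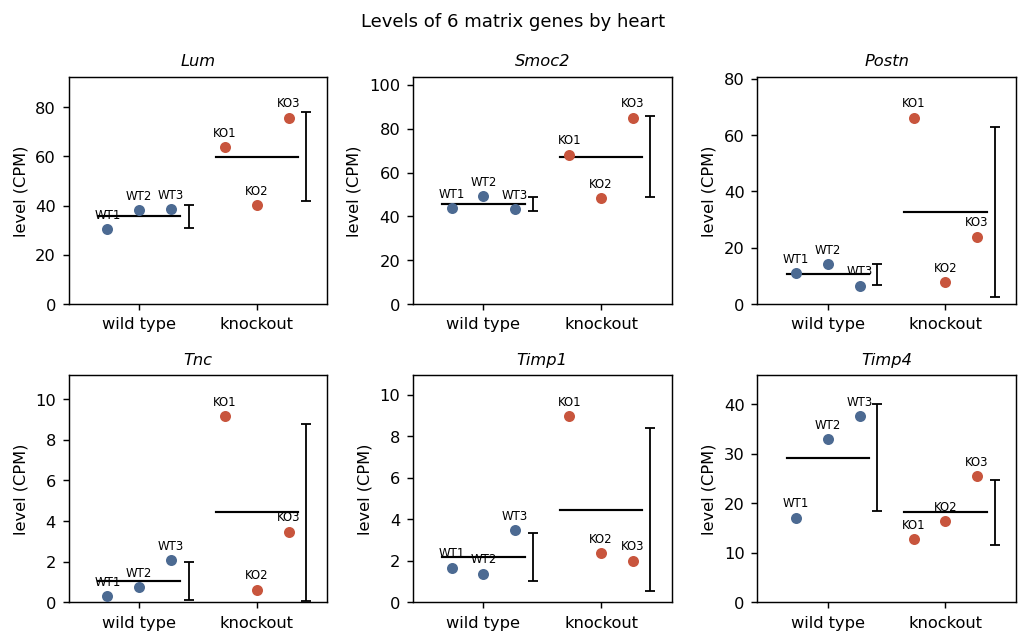
Levels in CPM of 6 of the matrix genes in each heart (points), with the mean (line) and SD (bar) of the 3 hearts per genotype. Lum shows no overlap between genotypes, while KO2 lies within or below the wild-type range for Smoc2, Postn, Tnc, Timp1 and Timp4.

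Among the proteoglycans, 5 of 6 genes had higher values in knockout, with a median log2 fold change of 0.69. Lum encodes lumican, a small leucine-rich proteoglycan that binds collagen fibrils. It stood at 30.3, 38.0 and 38.6 CPM in wild type and 63.9, 40.1 and 75.7 CPM in knockout. Every knockout heart was above every wild-type heart, although KO2 exceeded WT3 by a factor of only 1.04, and with library size alone as the scaling the groups overlapped. The log2 fold change was 0.75 (SE 0.24, 95% interval 0.18 to 1.32, adjusted p of 1 in edgeR), and 0.70 without KO1. Dcn, decorin, a close relative that also coats collagen, had the highest level of the group per length (55.4 CPM per kb) and was nearly flat. Its values were 301, 342 and 339.6 CPM in wild type and 388, 258 and 313 CPM in knockout, and the log2 fold change was -0.03 (SE 0.18). The interval excluded a 1.5-fold difference for Dcn and for Ogn, osteoglycin, which ran from 90.2 to 113 CPM over the 6 hearts (0.10, SE 0.14).

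Biglycan, Bgn, the nearest relative of decorin, did not share its flat profile. It ranged from 55.2 to 137 CPM in wild type and from 60.8 to 212 CPM in knockout (log2 fold change 0.64, SE 0.48). Vcan, versican, a large hyaluronan-binding proteoglycan, stood at 5.28, 7.80 and 4.57 CPM in wild type and at 18.4, 3.55 and 10.7 CPM in knockout (0.89, SE 0.53). Fmod, fibromodulin, was scarce, with 4 reads in its poorest library. It stood at 1.33, 0.293 and 0.269 CPM in wild type and at 3.62, 0.138 and 1.86 CPM in knockout (1.61, SE 1.0). KO1 and KO3 lay above all wild-type hearts for Vcan and Fmod alike, and KO2 lay below them all. Without KO1 the log2 fold changes were 0.28 for Vcan and 0.72 for Fmod, and without WT1 that of Fmod was 2.74. The ratio of biglycan to decorin per length was 0.250, 0.383 and 0.155 in WT1 to WT3 and 0.523, 0.225 and 0.454 in KO1 to KO3.

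All 9 genes of fibronectin and the elastic fibre had values above 0 on the log2 scale, from 0.03 to 0.77, and none had an unadjusted p under 0.05. Fbln1, fibulin-1, which joins fibronectin and elastic fibres, had the highest level per length (15.9 CPM per kb). It was measured at 62.2, 79.1 and 59.2 CPM in wild type and at 81.0, 52.3 and 81.9 CPM in knockout (log2 fold change 0.10, SE 0.22). Mfap4, a microfibril-associated glycoprotein, stood at 3.92, 7.94 and 3.64 CPM in wild type and 9.68, 4.65 and 10.3 CPM in knockout (0.67, SE 0.40). For both genes KO1 and KO3 were the 2 highest hearts, and KO2 was the lowest heart for Fbln1 but not for Mfap4.

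Fn1, fibronectin, on which cells assemble other matrix fibres, spanned 17.6 to 29.2 CPM in wild type and 9.92 to 60.0 CPM in knockout. Its log2 fold change was 0.77 (SE 0.57). Fbn1, fibrillin-1, the main component of microfibrils, reached 105 CPM in KO1, and no other heart exceeded 58.9 CPM; its log2 fold change of 0.60 (SE 0.59) became -0.18 without KO1. Eln, elastin itself, had a log2 fold change of 0.09 (SE 0.41) with all hearts and -0.53 without KO1. Emilin1 stood at 0.63 (SE 0.54), Fbln2 at 0.41 (SE 0.59), Mfap5 at 0.20 (SE 0.20) and Fbln5, which helps elastin to assemble, at 0.03 (SE 0.33).

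The 6 genes of collagen maturation and crosslinking all had higher values in knockout and KO1 was the highest heart for all 6. Serpinh1 encodes HSP47, the collagen chaperone of the endoplasmic reticulum, and had the highest level per length of the 43 genes (89.0 CPM per kb). It was also the steadiest of them, at 207, 190.1 and 224 CPM in wild type and 237, 225 and 222 CPM in knockout (log2 fold change 0.14, SE 0.14). The highest heart exceeded the lowest by a factor of 1.25 for Serpinh1. The lysyl oxidase Loxl2 stood at 11, 11.2 and 7.13 CPM in wild type and at 22.4, 6.58 and 15 CPM in knockout (0.59, SE 0.42). Its relatives Loxl1 and Lox had log2 fold changes of 0.42 (SE 0.41) and 0.24 (SE 0.44), and both were below 0 without KO1, at -0.04 and -0.44. Adamts2, which removes the amino-terminal propeptide of procollagen, stood at 0.64 (SE 0.53), and Pcolce, which enhances cleavage at the other end, at 0.36 (SE 0.35).

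Matrix proteases divided evenly, with 3 of 6 genes higher and 3 lower and a median log2 fold change of -0.01. Mmp2, a gelatinase, had the highest level per length (8.68 CPM per kb). It stood at 23.5, 35.3 and 14.4 CPM in wild type and 47.1, 14.4 and 40.9 CPM in knockout (0.48, SE 0.47), so that WT3 and KO2 were the lowest and nearly equal. Mmp14, the membrane-bound enzyme that activates Mmp2, had a log2 fold change of 0.55 (SE 0.44) and -0.05 without KO1. Mmp3, stromelysin-1, was below 5 CPM in every heart and stood at -0.52 (SE 0.48). The aggrecanases Adamts1 and Adamts5 stood at -0.12 (SE 0.51) and -0.09 (SE 0.33), and Adamts1 reached 41.7 CPM in WT2 against 11.6 to 25.4 CPM in the other hearts. Ctsk, cathepsin K, a collagen-cutting cysteine protease, ranged from 4.94 to 7.70 CPM (0.07, SE 0.21).

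The 4 TIMP genes differed in sign. Timp1, the inducible member, stood at 1.68, 1.38 and 3.49 CPM in wild type and at 8.98, 2.38 and 2.02 CPM in knockout (log2 fold change 1.04, SE 0.64). KO1 alone was high, and without it the log2 fold change of Timp1 was 0.01. Timp4, the member typical of heart muscle, had the opposite sign: 17.1, 32.9 and 37.6 CPM in wild type and 12.7, 16.4 and 25.4 CPM in knockout (-0.68, SE 0.35). WT1 lay within the knockout range for Timp4, and KO1 was its lowest heart. Timp2 stood at 61.5, 73.9 and 53.2 CPM in wild type and 108, 50.8 and 86.9 CPM in knockout (0.38, SE 0.28) and had the highest level of the TIMPs per length (18.6 CPM per kb). Timp3, which binds to the matrix, stood at 0.25 (SE 0.45). The ratio of Timp1 to Timp4 per length, which does not depend on the scaling of libraries, was 0.651, 0.279 and 0.616 in WT1 to WT3 and 4.69, 0.960 and 0.526 in KO1 to KO3.

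The remaining 3 secreted proteins all had higher values in knockout. Mgp, matrix Gla protein, an inhibitor of calcification, had the highest level of them per length (61.7 CPM per kb). It stood at 49.1, 68.1 and 89.7 CPM in wild type and 65.0, 84.7 and 83.1 CPM in knockout (log2 fold change 0.17, SE 0.24), and its lowest heart was WT1. Cilp, a cartilage intermediate layer protein that is also made by cardiac fibroblasts, stood at 3.04, 6.84 and 1.28 CPM in wild type and 18.5, 1.83 and 6.10 CPM in knockout (1.25, SE 0.84). KO1 was 6.10-fold above the median of the other hearts for Cilp, and the log2 fold change was 0.10 without it and 2.03 without WT2. Ccdc80 stood at 0.32 (SE 0.49) and -0.13 without KO1.

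The members differed widely in how far hearts lay apart. The highest heart exceeded the lowest at least 4-fold for 10 of the 43 genes, against 4.8% of all genes tested, and these were Postn, Tnc, Fmod, Vcan, Fn1, Fbn1, Fbln2, Emilin1, Timp1 and Cilp. It did so less than 2-fold for 9 genes, against 70.4% of all genes tested: Sparc, Smoc2, Dcn, Ogn, Fbln1, Mfap5, Serpinh1, Ctsk and Mgp. The 5 genes with a log2 fold change over 1, Tnc, Postn, Fmod, Cilp and Timp1, all belonged to the first of these groups. The median ratio of highest to lowest heart was 3.18 for the set and 1.65 over all genes. It was 1.96 among wild-type hearts alone (1.41 over all genes) and 3.03 among knockout hearts alone (1.48 over all genes).

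**Figure D4:**
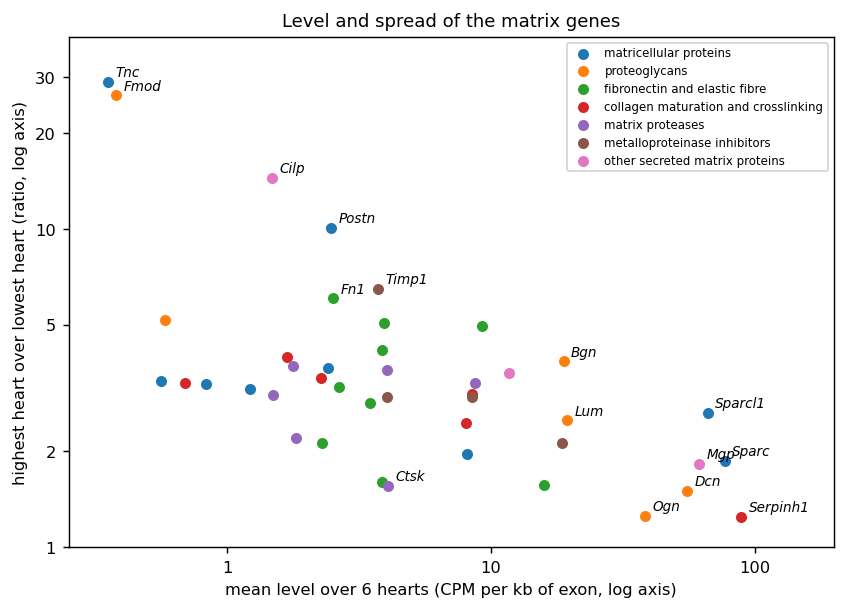
Mean level over 6 hearts (x axis, CPM per kb of exon, log axis) against the ratio of the highest to the lowest heart (y axis, log axis) for the 43 genes, coloured by role. Serpinh1, the most abundant per length, has a ratio of 1.25, Sparcl1, also abundant, has 2.64, and Tnc and Fmod, the scarcest, have 29.0 and 26.2.

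Promoter windows of 26 of the 43 genes were found in RefSeq on GRCm38.p6, taken as the 250 bases before the start. Those of Postn, Tnc and Timp4 are shown because, of the genes with a window, these had the smallest p: Postn and Tnc shared KO1 as their highest heart, and KO1 was the lowest heart for Timp4. They are written in the direction of transcription, and the start site follows the last base. Capitals mark matches to 5 motifs searched on both strands. The letters searched were CAGAC for SMAD proteins. For AP-1 they were TGANTCA, and for TEAD factors GGAATG. The E-box was searched as CACGTG and the TATA box as TATAAA. The windows lie at chr3:54360857-54361106 on the plus strand for Postn, chr4:64047016-64047265 on the minus strand for Tnc and chr6:115252206-115252455 on the minus strand for Timp4.
Postn: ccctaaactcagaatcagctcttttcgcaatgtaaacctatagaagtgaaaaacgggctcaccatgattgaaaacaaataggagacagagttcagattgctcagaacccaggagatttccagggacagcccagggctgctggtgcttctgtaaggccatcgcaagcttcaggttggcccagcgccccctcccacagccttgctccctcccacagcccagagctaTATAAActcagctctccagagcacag
Tnc: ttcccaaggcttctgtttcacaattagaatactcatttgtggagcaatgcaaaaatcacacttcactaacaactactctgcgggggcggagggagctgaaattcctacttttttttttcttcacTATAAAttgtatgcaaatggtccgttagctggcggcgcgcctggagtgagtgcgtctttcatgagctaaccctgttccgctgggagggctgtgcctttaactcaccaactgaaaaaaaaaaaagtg
Timp4: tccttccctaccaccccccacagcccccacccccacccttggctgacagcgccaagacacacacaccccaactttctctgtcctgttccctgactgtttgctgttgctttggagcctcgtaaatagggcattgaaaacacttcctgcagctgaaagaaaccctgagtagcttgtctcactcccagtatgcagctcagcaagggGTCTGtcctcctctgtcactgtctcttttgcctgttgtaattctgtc

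The window of Postn held TATAAA beginning 26 bases before the start, and that of Tnc held it 126 bases before. The window of Timp4 held only the SMAD letters, on the other strand, 47 bases before the start. TATAAA was found in 6 of the 26 windows (23.1%), against 12.4% of 32851 windows of all genes. The SMAD letters were in 9 of 26 (34.6%, against 42.2%), TEAD in 3 (11.5%, against 12.6%), and AP-1 and the E-box in 1 each (3.85%, against 6.75% and 6.02%). Each of the 3 windows shown held 1 match, so none overlapped another. The set had 1 window per gene, the nearest to its annotated start. Windows of all genes include every entry, so genes with several entries count more than once and the shares are not strictly alike. These matches describe the letters only.

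Most other matrix genes outside the set had the same sign. Of 44 tested non-collagen matrix genes, 35 had higher and 9 lower values in knockout, with a median log2 fold change of 0.29, and edgeR called 0 of them, with 0 at an unadjusted p under 0.05. The 4 with the smallest p were Smoc1, a relative of Smoc2 with the opposite sign (-0.53, SE 0.23), Aspn, a small leucine-rich proteoglycan (0.48, SE 0.24), Fndc1 (1.27, SE 0.68) and Igfbp7, a secreted binding protein (0.62, SE 0.35). Smoc1 had all knockout hearts below all wild-type hearts, and Aspn had them all above. Of 50 tested remodelling genes 39 were higher and 11 lower, with a median of 0.22, and again 0 were called. There were 3 at an unadjusted p under 0.05 in edgeR, against 1.23% of all genes tested. In the whole table DESeq2 and limma-voom each called 1 gene. Fap, the fibroblast activation protease, stood at 2.09, 1.92 and 1.67 CPM in wild type and 2.75, 2.86 and 3.14 CPM in knockout (0.62, SE 0.19). All knockout hearts, KO2 included, were above all wild-type hearts for Fap. Adam12, a membrane protease, stood at 2.33 (SE 0.71) from levels under 2 CPM, Adamts8 at 1.24 (SE 0.53) and Mmp23 at 0.55 (SE 0.24). KO1 was the highest heart for 27 of the 44 (61.4%) and 28 of the 50 genes (56.0%), against 21.6% of all genes tested.

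Summed over each list, markers of several other cell types were, like the matrix genes, highest in KO1. The 11 fibroblast markers outside the set all had higher values in knockout. They summed to 944 to 1544 CPM in wild-type and 796 to 1928 CPM in knockout hearts, lowest in KO2 and highest in KO1. Among them Col1a1, Col1a2, Col3a1 and Lamb1 encode matrix proteins themselves, so this list is not separate from matrix expression. Col3a1 alone ran from 47.1 CPM (WT3) to 386 CPM (KO1). The 12 markers of epicardium and mesothelium were all higher, with KO1 the highest heart for each of them, and they summed to 13.2 to 21.9 CPM in wild type and 11.1 to 49 CPM in knockout. The 8 markers of proliferating cells summed to 5.31 to 9.40 CPM in wild type and 7.72 to 36.8 CPM in knockout, and KO1 was the highest heart for all 8. Endothelial markers were higher for 4 of 7, summing to 371 to 702 CPM against 351 to 797 CPM, and macrophage markers for 7 of 8, summing to 270 to 315 CPM against 230 to 440 CPM. Smooth muscle and pericyte markers were higher for 8 of 10, at 1059 to 1109 CPM against 985 to 1197 CPM. Summed atrial markers were highest in WT2, and summed valve, cartilage and tendon markers in KO2. Cardiomyocyte markers, summed, were highest in KO3 (91860 CPM) and lowest in KO2 (70030 CPM) and WT3 (72490 CPM). Single cardiomyocyte markers differed, 5 of 10 being higher and 5 lower in knockout. Ttn stood at 878.9, 2645 and 788.5 CPM in wild type and at 2308, 839 and 3235 CPM in knockout. Myh6 stood at 17170, 26860 and 10040 CPM against 22900, 9167 and 29520 CPM. WT3 and KO2 were the lowest hearts for both, as for many of the matrix genes. Tnnt2 ran otherwise, at 7067, 5845 and 7349 CPM against 5302, 7086 and 6801 CPM. Atrial markers were higher for 4 of 5 tested of 7 listed, and summed to 110 to 151 CPM against 80.5 to 145 CPM. Most of that sum was Nppa, the 1 tested atrial marker with lower values (-0.28, SE 0.31). Nppa stood at 90.6, 127 and 81.8 CPM in wild type and 123, 65.7 and 58.2 CPM in knockout. Myl7, Myl4 and Dkk3, all higher, reached at most 2.2 CPM in any heart. Of 8 valve, cartilage and tendon markers outside the set 2 were tested, 1 of them higher, and the 8 summed to 7.72 to 16.2 CPM against 5.71 to 17.5 CPM. Every marker on these lists had at least 1 read in some heart. Their part in the matrix gene values was not tested, and in whole tissue more cells of a type and more RNA per cell cannot be told apart.

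**Figure D5:**
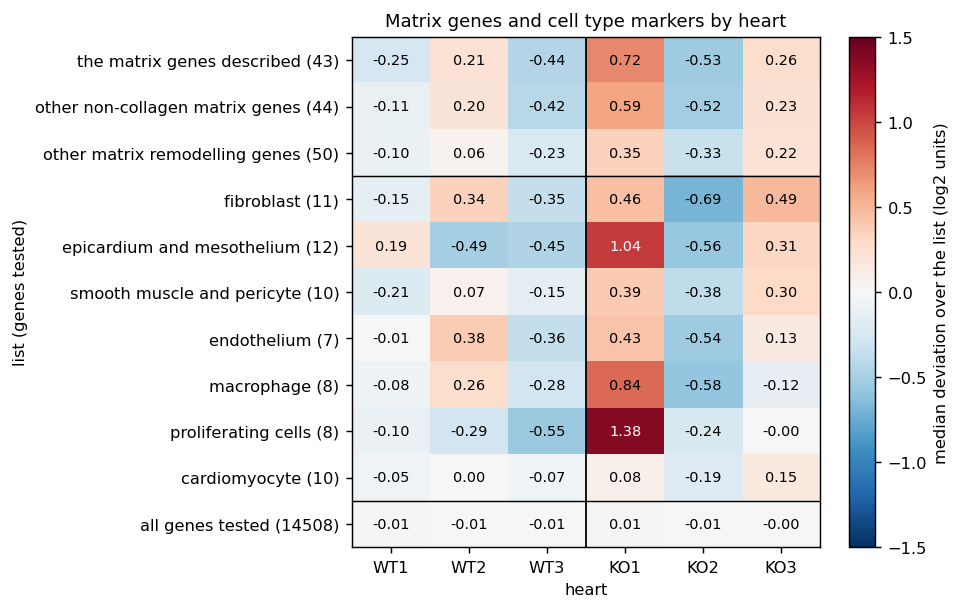
Median deviation of each gene list in each heart, in log2 units: the median over a list's genes of log2(CPM + 0.5) minus the gene's mean over the 6 hearts. The matrix genes lie at 0.72 in KO1, -0.53 in KO2 and 0.26 in KO3. Fibroblast markers lie at 0.46, -0.69 and 0.49, so that KO3 is their highest heart on this measure. Cardiomyocyte markers lie at 0.08, -0.19 and 0.15. This median over 10 genes does not show the wider spread of single markers such as Ttn and Myh6.

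Some of these genes share exon bases with another annotated gene, and their counts are uncertain where reads could be assigned to either. This held for 11 of the 43, among them Fbn1 (2442 bases) and Timp3 (1733 bases, with Syn3), and no source used here states the strand setting of the counting. Timp1, Timp3 and Timp4 lie within synapsin genes on the opposite strand. The reads assigned to Syn1 and Syn3 numbered 5 to 21 per library and those of Syn2 44 to 97.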

How the data were processed

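The values the authors deposited are raw whole-number counts of reads per gene and heart. The submitters' processing notes list STAR, featureCounts, Subread 1.5.2, the build GRCm38.p6 and DESeq2, but give them no roles. Per the labels' protocols RNA was isolated with an RNeasy kit and libraries made with a NEBNext Ultra II kit. No source used here gives the annotation release or strand setting.

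From the counts, genes were kept by filterByExpr of edgeR 4.0.16 (minimum count 10, minimum total 15) in R 4.3.3, scaled by TMM, and tested by genotype with the quasi-likelihood F test across all 14508 genes kept, with Benjamini-Hochberg adjustment and a threshold of 0.05. Standard errors and 95% intervals came from the fitted model. The biological coefficient of variation was 24.2%. The test was tried on simulated data. Alternatives were DESeq2 1.42.0, limma 3.58.1 (voom), other scalings and filters, robust edgeR, each library left out, a replicate block, a term for Y-linked reads (over 5 CPM) and for WT3 and KO2. Positions and exon lengths came from GENCODE M21 on GRCm38. Symbols matched 48970 of 49315 identifiers.

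The members and lists were chosen with earlier results of these data known. In the lists, 4 symbols were replaced by the newer ones of the same genes (Ccn1, Ccn2, Ccn3 and Ccn5) to match the symbol table. Values in every heart are given for the 14 members with the smallest p and the member with the highest level per length in each role. The other members are given by range or fold change. From each list of other matrix genes the 4 with the smallest p are named.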

Additional observations from a re-analysis of the deposited data

How the results depend on the processing

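No alternative called any of the 43 genes: the count was 0 under all 17 (DESeq2 size factors, library size alone, no filter, 1 CPM in 3 libraries, DESeq2, limma-voom, robust edgeR, each of 6 libraries left out, a replicate block, 2 treatments of WT3 and KO2, and a Y-linked term). The median log2 fold change stayed above 0, from 0.10 to 0.69 with 1 library left out and from 0.32 to 0.59 otherwise. It was lowest without KO1 and highest without WT2. The number of genes higher in knockout ran from 27 to 40 with 1 library left out and from 37 to 39 otherwise. At an unadjusted p under 0.05 in edgeR, in either direction, 9 of the 43 were held with no filter (against 1.74% of all genes). There were 4 with library size alone (against 1.2%) and 2 under the replicate block (against 0.496%). There were 6 with WT3 and KO2 as a separate level (against 4.3%) and 17 without both (against 6.71%).

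Genes called over the whole table numbered 0 without KO3 and 1 with any other single library left out, 0 under the replicate block and 2 without both WT3 and KO2, against 1 with all hearts. Same-numbered libraries correlated at 0.184, -0.649 and -0.399 in their deviations from the group means, and WT3 and KO2 at 0.684. Deviations from means of 3 libraries depend on one another. They cannot settle whether the replicate numbers pair the hearts. Members whose groups do not overlap, in either direction, numbered 1 with all hearts (2.33%, against 4.07% of all genes tested). They numbered 0 with library size alone (3.39% of all genes) and 2 with no filter (4.65%, against 4.6%). With 1 library left out they numbered 2 to 18: the 18 arose without KO2 (41.9%, against 29.3%), and there were 7 without WT3 (16.3%, against 11.8%). With any of the 4 other libraries left out they numbered 2 to 4, against 7.42% to 10.6% of all genes. Without both WT3 and KO2 they numbered 23 (53.5%, against 38.0%).

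Of 731 single-gene values 35 turned sign, in 18 genes, and 25 genes kept 1 sign throughout; the cause was not tested. With 1 library left out, log2 fold changes ran from -0.017 to 0.378 for Sparc, -0.041 to 0.75 for Thbs2, -0.11 to 0.75 for Thbs4, -0.20 to 0.10 for Dcn and -0.53 to 0.39 for Eln. They ran from -0.18 to 1.06 for Fbn1, -0.004 to 0.28 for Fbln1, -0.21 to 0.89 for Fbln2, -0.17 to 0.40 for Fbln5, -0.44 to 0.53 for Lox and -0.04 to 0.73 for Loxl1. For Mmp14 they ran from -0.047 to 0.892, for Adamts1 from -0.43 to 0.71, for Adamts5 from -0.49 to 0.16 and for Ctsk from -0.053 to 0.287. For Timp3 they ran from -0.18 to 0.72, for Mgp from -0.024 to 0.403 and for Ccdc80 from -0.13 to 0.75. In limma-voom Eln stood at -0.054 and Adamts1 at 0.083, and under the replicate block at -0.063 and 0.13. With the Y-linked term Dcn stood at 0.011, Adamts1 at 0.25, Adamts5 at 0.12 and Ctsk at -0.025, and without both WT3 and KO2 Dcn stood at 0.12.

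With 3 hearts per genotype, the median of the set had a spread of 0.51 between hearts within genotype (SD, log2, pooled over both genotypes). The median log2 fold change of 0.41 was smaller than that spread. Whether it exceeds variation between hearts was not tested, and no single gene of the set was called. Reads carry no molecular identifiers, and Fmod was the only gene of the set with fewer than 10 reads in a library.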
